A study of Mus musculus with 5 samples.

Results

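Keratins and the genes of the desmosome and the cornified envelope were followed through a mouse time series of colitis-associated colon cancer. The members were every gene in the table named as a keratin (Krt with a number), desmoglein, desmocollin, plakophilin or small proline-rich protein (Sprr), together with Dsp, Jup, Ppl, Evpl, Ivl and Lor. They numbered 90 of 52382 genes. Where 4 values follow that of W0, they are those of W2, W5, W8 and W11 in that order. Of these, 27 had no counts in any library, 30 had counts but a mean under 1 CPM (counts scaled to a library total of 1000000), and 33 had a mean of at least 1 CPM and were compared.

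All libraries came from colon tissue of male, wild-type C57BL/6 mice aged 8 to 12 weeks at the start. W0 was an untreated control on distilled water, described both as taken before treatment and as killed together with treated mice, W2 was labelled as given the mutagen azoxymethane (AOM, 8.5 mg/kg, injected on days 1 and 8) alone, and W5, W8 and W11 as given AOM and dextran sulfate sodium (DSS, 1.5% in the drinking water, 7 days a cycle, with 14 days of plain water after it), which injures the colonic epithelium. Each week had 1 library, 3 mice were selected per group, and pooling is not given in the sources used here, so no difference below has a replicate check or a p-value. "Rose" and "fell" mean a difference of at least 2-fold on the log2(CPM + 1) scale, and intervals are exact 95% intervals of the counts, which cover counting error only.

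The libraries held between 13389184 and 20379429 counted reads. Colon tissue is the labelled source, although the cell type is given as epithelial. Smooth muscle genes summed to between 3194 and 7304 CPM, so the libraries were not of epithelium alone, and fewer cells of a type cannot be told apart from less RNA per cell. At W11 folds against W0 followed transcript length across genes (Spearman rho = -0.47 over 14711 genes), with medians of 0.68 in the shortest and -0.84 in the longest length decile on the log2 scale. At W5 they followed GC content (rho = -0.37). The part of these trends in the results below was not tested, but for members values with each trend removed are given where they change a call. For the genes of the other lists such values are not given.

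Keratins are the intermediate filament proteins of epithelia. A type I keratin always assembles with a type II keratin, and which pair a cell makes marks its kind: Krt8 with Krt18, Krt19 or Krt20 in simple epithelia such as the colon, Krt5 with Krt14 in the basal layer of stratified epithelia, Krt4 with Krt13 in the lining of the mouth and oesophagus, and other keratins in hair. The filaments end at desmosomes, junctions made of adhesive cadherins (desmogleins and desmocollins) that are tied by plakoglobin, plakophilins and desmoplakin to the keratin network.

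The type I keratin genes other than Krt18 lie on mouse chromosome 11, and Krt20 and Krt23 are neighbours there with opposite courses described below. Their promoters (300 bases each, ending shortly after the start, RefSeq, GRCm38.p6) are printed with those of Krt36, which had the largest log2 fold at W11, and Krt13, whose starts held the searched AP-1 and grainyhead motifs. Capitals mark TATAAA, the AP-1 motif TGANTCA and the grainyhead motif AACCGG, on either strand and with no overlaps among those printed. The Krt20 promoter lies at chr11:99438104-99438403, that of Krt23 at chr11:99493071-99493370, that of Krt36 at chr11:100105577-100105876, and those of the upstream and downstream Krt13 starts at chr11:100121517-100121816 and chr11:100120528-100120827, all on the minus strand.
Krt20: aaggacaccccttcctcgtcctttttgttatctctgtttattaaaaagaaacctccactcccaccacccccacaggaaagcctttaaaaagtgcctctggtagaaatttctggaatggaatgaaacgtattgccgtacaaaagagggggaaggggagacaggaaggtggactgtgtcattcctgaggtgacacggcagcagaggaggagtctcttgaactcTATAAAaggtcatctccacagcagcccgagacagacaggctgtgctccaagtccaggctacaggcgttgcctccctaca
Krt23: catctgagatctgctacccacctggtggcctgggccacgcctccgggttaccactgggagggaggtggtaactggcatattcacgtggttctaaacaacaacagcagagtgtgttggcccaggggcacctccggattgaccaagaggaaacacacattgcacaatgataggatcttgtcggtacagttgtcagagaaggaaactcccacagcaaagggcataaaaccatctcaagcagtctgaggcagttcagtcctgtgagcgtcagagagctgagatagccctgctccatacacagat
Krt36: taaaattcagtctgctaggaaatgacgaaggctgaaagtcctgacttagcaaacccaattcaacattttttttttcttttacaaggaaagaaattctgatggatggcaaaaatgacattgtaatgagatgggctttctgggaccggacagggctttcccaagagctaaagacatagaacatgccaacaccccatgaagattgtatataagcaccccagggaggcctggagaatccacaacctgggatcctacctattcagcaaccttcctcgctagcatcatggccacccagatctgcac
Krt13 upstream start: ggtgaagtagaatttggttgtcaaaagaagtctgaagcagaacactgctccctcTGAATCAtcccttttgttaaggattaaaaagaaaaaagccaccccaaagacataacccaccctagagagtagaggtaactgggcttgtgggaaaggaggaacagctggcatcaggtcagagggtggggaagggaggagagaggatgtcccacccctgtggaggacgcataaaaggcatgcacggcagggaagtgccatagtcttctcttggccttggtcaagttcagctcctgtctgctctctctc
Krt13 downstream start: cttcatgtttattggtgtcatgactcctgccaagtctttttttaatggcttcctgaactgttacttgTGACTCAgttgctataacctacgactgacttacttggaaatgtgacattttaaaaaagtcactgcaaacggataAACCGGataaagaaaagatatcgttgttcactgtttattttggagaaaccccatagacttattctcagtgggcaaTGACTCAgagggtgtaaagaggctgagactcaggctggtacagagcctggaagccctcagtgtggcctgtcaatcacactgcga

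TATAAA began 29 bases before the start of Krt20. It was found in 13.6% of all 32851 promoters of the same length, the AP-1 motif in 7.81%, the grainyhead motif in 6.83% and the KLF motif CACCC in 57.5%. RefSeq promoters were matched for 55 of the 90 members and for 6 of the 10 members that rose at W5, W8 and W11. Of those 6, 1 held the AP-1 motif, 1 the grainyhead motif, 1 TATAAA and 5 the KLF motif. These are descriptions of the letters in these windows.

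The simple epithelial keratins of the colon made up nearly all keratin RNA at every week. Per length, on the scale of the deposited RPKM values (reads scaled by gene length and library size), Krt8, Krt18, Krt19 and Krt20 together held 99.5% of the summed keratin level at W0 and then 99.3%, 98.7%, 95.6% and 95.2%. The share of all the other keratins was thus larger than at W0 in each later library. Within that remainder, type I keratins had 0.168% of the keratin sum at W0 and 3.28% at W11, and type II keratins 0.364% and 1.52%. Type I keratins were thus the smaller part of the remainder at W0 and the larger part at W8 and W11.

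**Figure D1:**
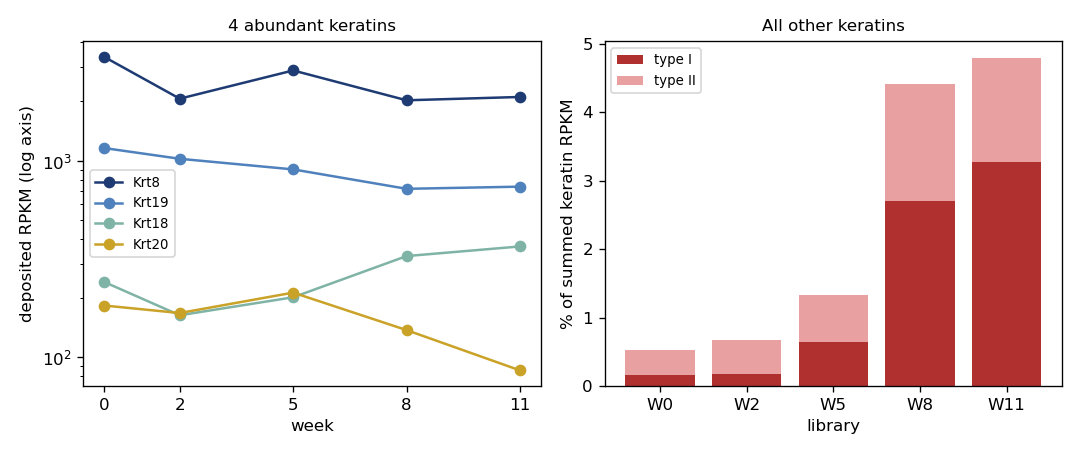
Left, the deposited RPKM of the 4 abundant keratins by week on a log axis, with 1 library per week. Right, the share of the summed keratin RPKM held by all other keratins, split by type; type I keratins went from 0.168% at W0 to 3.28% at W11.

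Krt8, the type II partner in simple epithelia, was measured at 13735 CPM at W0 and then 8755, 11068, 8221 and 8683. It was lower than at W0 in every later library, but by less than 2-fold. Krt19, a type I keratin of intestinal crypts and ducts, was at 5631 CPM at W0 and then 5163.5, 4143, 3477 and 3622, also within 2-fold of W0. With the length trend removed Krt19 passed the criterion at W11, at a log2 fold of -1.01.

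Krt18, the usual type I partner of Krt8, went the other way at the late weeks, with 723 CPM at W0 and then 509, 571, 974 and 1108. It did not pass the 2-fold criterion (log2 0.61 at W11). On the RPKM scale its level was 7.17% of that of Krt8 at W0 and then 7.92%, 7.03%, 16.2% and 17.4%. The ratio of these partners within a library, which does not depend on library scaling, was thus higher in both late libraries than in the 3 earlier ones, while the level of Krt19 was 34.4% of that of Krt8 at W0 and then 49.5%, 31.4%, 35.5% and 35.0%.

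Krt20, a keratin of differentiated surface and goblet cells, was at 736 CPM at W0 and then 701, 809, 549 and 348. It fell at W11, by 1.08 on the log2 scale, a level 2.12-fold lower than at W0 (2.05 to 2.19). This call rests on the scaling: its log2 fold was -0.85 with median-of-ratios scaling, -0.78 with the GC trend removed and -0.93 with the median of all genes subtracted. Genes of surface colonocytes went down beside it, with 7 of 9 tested lower at W8 and 8 of 9 at W11, where their median log2 fold was -3.41. The shares lower among all genes tested were 3.85% at W8 and 16.9% at W11.

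Krt7, a type II keratin of ducts and glands, was at 281 CPM at W0 and then 285, 405, 827 and 811. It rose at W8 (log2 1.55) and W11 (1.52), 2.94-fold (2.83 to 3.05) and 2.88-fold above W0. W8 and W11 did not differ beyond counting error (ratio 0.98, interval 0.96 to 1.01). Relative to Krt8 its RPKM level was 0.481% at W0 and 2.36% at W8.

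Krt23, a type I keratin found in human colon tumours, was at 10.02 CPM at W0 and then 3.89, 23.6, 123 and 171. It fell at W2 (log2 -1.17) and rose at W5 (1.16), W8 (3.49) and W11 (3.96), where it stood 17.1-fold above W0 (14.4 to 20.4). The W8 library was 5.20-fold above W5 (4.70 to 5.77), and W11 was again above W8 (1.39-fold, 1.31 to 1.48). Krt23 lies next to Krt20 on chromosome 11. On the RPKM scale it had 1.67% of the level of Krt20 at W0 and then 0.684%, 3.595%, 27.5% and 60.4%.

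**Figure D2:**
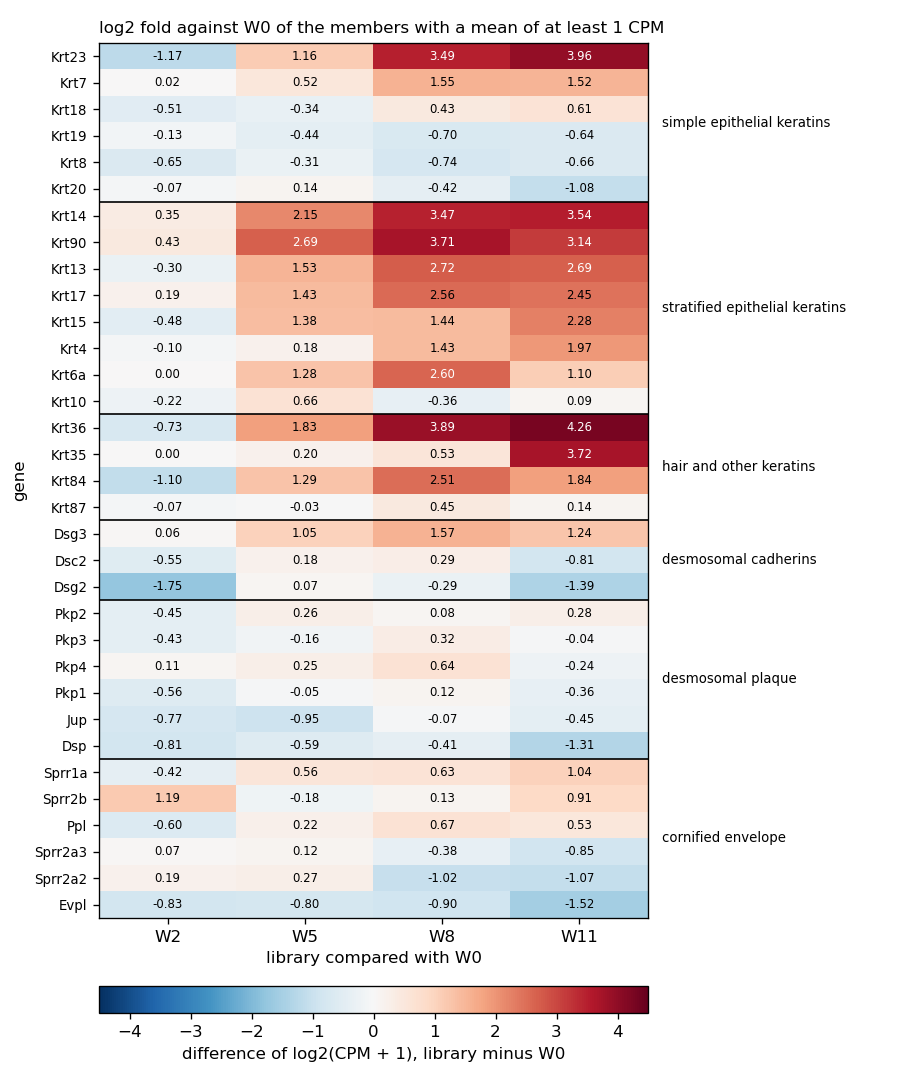
Each cell gives the difference of log2(CPM + 1) between the library at the foot and W0, for the 33 members with a mean of at least 1 CPM, grouped by role. Krt36 and Krt23 have the highest values at W11, and the desmosomal plaque genes stay within 1 of 0 apart from Dsp at W11.

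Most tested keratins of stratified epithelium, which colon epithelium makes little of, were higher from W5 on, while most members of the group were too low to test. Of 22 such members 8 were tested, and of these 6 rose at W5 and 7 in each of the W8 and W11 libraries, with none lower. The share that rose among all genes tested was 6.63% at W5, 7.79% at W8 and 11.3% at W11. The median log2 fold of the 8 over the last 3 weeks was 1.41, 2.58 and 2.37, against 0.11, 0.11 and -0.15 over all 14720 genes tested. Among the 5 with at least 1 CPM at W0, 4 rose in each of the last 3 libraries, with medians of 1.43, 2.56 and 2.45. Krt4, Krt6a and Krt90 passed the filter on low values only through the later libraries, so they had to be higher there, and neither the count of 8 nor its median is read as support. No stratified keratin passed the criterion at W2.

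Krt14, the type I keratin of basal cells, was at 2.83 CPM at W0 and then 3.89, 15.9, 41.5 and 43.4. From W5 on its log2 folds were 2.15, 3.47 and 3.54, and the W11 level was 15.3-fold that of W0 (11.1 to 21.8). The W8 and W11 levels did not differ beyond counting error. Krt5, its type II partner in basal cells, stayed at 1 count at W0 and then 1, 4, 3 and 2, while Krt14 had 39, 57, 325, 556 and 649 counts. The rise of Krt14 was thus measured in libraries with no more than 4 counts of Krt5.

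Krt17, a keratin induced in wounded skin, was at 5.37 CPM at W0 and then 6.28, 16.2, 36.6 and 33.8, and rose at W5 (log2 1.43), W8 (2.56) and W11 (2.45). Krt16, a close relative beside it in the cluster, stayed between 0.44 and 0.90 CPM and was not tested. Krt14, Krt16 and Krt17 have similar sequences, and how reads shared between them were counted is not given in the sources used here.

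Krt13, the type I keratin of oral and oesophageal lining, was at 1.16 CPM at W0 and then 0.751, 5.25, 13.2 and 12.98, with log2 folds of 1.53, 2.72 and 2.69 from W5 on. Its type II partner Krt4 rose at W8 and W11, with 2 counts at W0 and then 1, 6, 28 and 52. The ratio of Krt4 at W11 to W0 was 24.0 with a counting interval of 6.31 to 203. Both Krt4 calls were lost with a pseudocount of 5 (log2 0.46 and 0.72) or the RPKM values (0.51 and 0.79). Krt15, another basal type I keratin, was at 1.16 CPM at W0 and then 0.546, 4.61, 4.85 and 9.501, and W5 and W8 did not differ beyond counting error (ratio 1.05, interval 0.76 to 1.46).

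Krt6a, a type II keratin induced in wounds, had no counts at W0 and W2 and then 1.42, 5.08 and 1.14 CPM in the last 3 libraries. Against a floor of 3 counts at W0 it was at least 6.54-fold higher at W5, 23.3-fold at W8 and 5.22-fold at W11. Its peak was at W8, with W11 4.46-fold lower (2.595 to 8.11). Part of its exons (24.8%) overlap genes on the opposite strand in the GENCODE M21 annotation, and the strand setting of the counting is not given in the sources used here.

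Krt90, a type II keratin, was at 0.145 CPM (2 counts) at W0 and then 0.546, 6.38, 14.0 and 9.10. Its ratio to W0 was 43.9 at W5, with an interval of 11.9 to 367, and 96.2 at W8, with an interval of 26.3 to 800. Krt10, a keratin of the upper epidermis, was tested and did not pass the criterion at any week, with 3.34 CPM at W0 and 3.61 at W11.

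**Figure D3:**
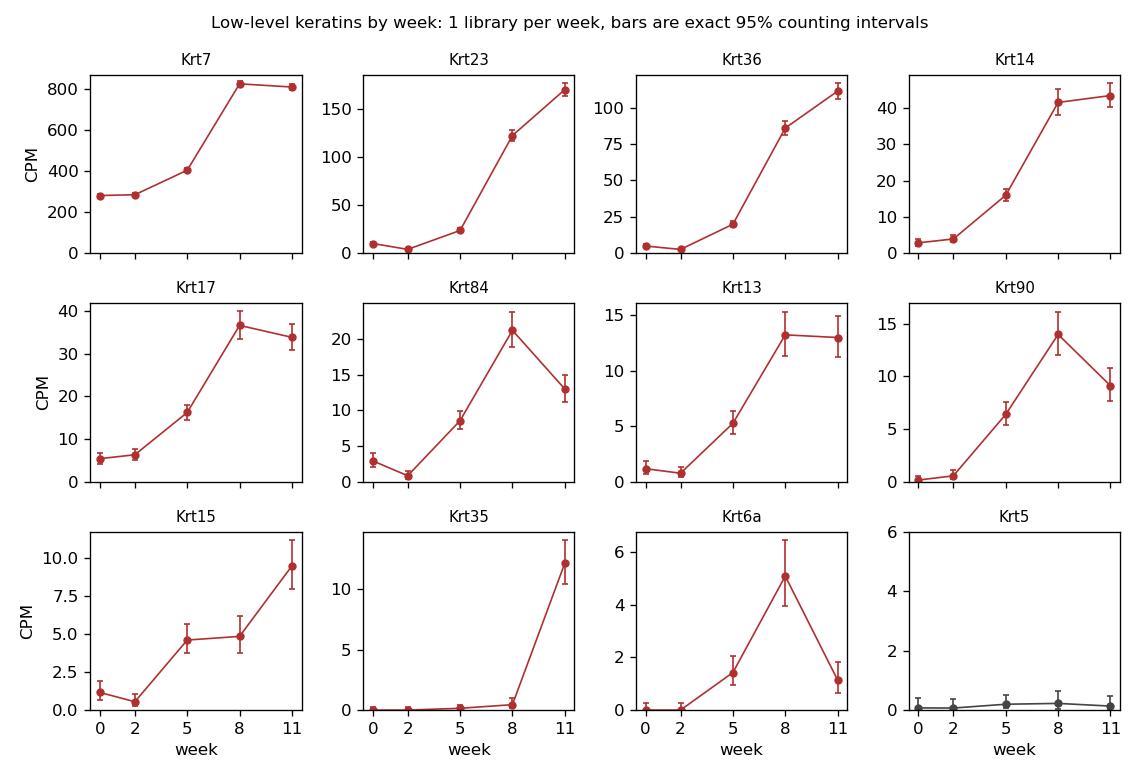
CPM of 12 keratins by week, each panel with its own axis from 0, 1 library per week, with bars for exact 95% Poisson intervals of the counts. In 11 panels the levels at W0 and W2 are below those at 1 or more of the later weeks. In the last panel Krt5 has no more than 4 counts in a library.

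Keratins known from hair follicles and tongue papillae gave the largest difference of log2(CPM + 1) of all members. Of 25 members in this group 4 were tested, and 2 rose in each of the W5 and W8 libraries and 3 at W11. Over all genes tested the share higher in these libraries was 6.63%, 7.79% and 11.3%. Krt35, one of the 3, passed the filter only through the W11 library. It thus had to be higher there, and the count of 3 is not read as support. Krt36, a type I hair keratin, was at 4.86 CPM at W0 and then 2.53, 19.8, 86.0 and 111. Its log2 folds from W5 on were 1.83, 3.89 and 4.26, the last a level 22.9-fold above W0 (17.9 to 29.7). On the RPKM scale it reached 1.50% of Krt8, compared with 0.557% for Krt14 at W11.

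Krt84, a type II hair keratin, was at 2.90 CPM at W0 and then 0.820, 8.54, 21.2 and 12.98. It fell at W2 (log2 -1.10), rose at W5 (1.29), W8 (2.51) and W11 (1.84), and was 1.63-fold lower at W11 than at W8 (1.36 to 1.97). Krt35, a type I keratin of the hair matrix, had no counts at W0 and W2 and then 3, 6 and 182. It was thus seen almost only in the W11 library, at 12.2 CPM, 55.9-fold above the floor of 3 counts at W0. From the 0 counts at W0 themselves, its exact interval began at a ratio of 45.0. Krt87 stayed between 4.78 and 7.32 CPM.

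On chromosome 11 the genes Krt35, Krt36, Krt13 and Krt15 follow each other in RefSeq order. All of them rose at W11, though Krt35 passed the filter only through that library. The gene after Krt15, Krt19, did not pass the criterion in either direction. Beyond Krt9, which had no counts, lie Krt14, Krt16 and Krt17, of which the first and last rose. On the other side of the cluster Krt20 fell and Krt23 rose. In the chromosome 15 cluster Krt90 and Krt84 are separated by Krt82, which had no counts. Rising genes thus stood beside genes that fell or were not detected, as the plot of folds in gene order shows.

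**Figure D4:**
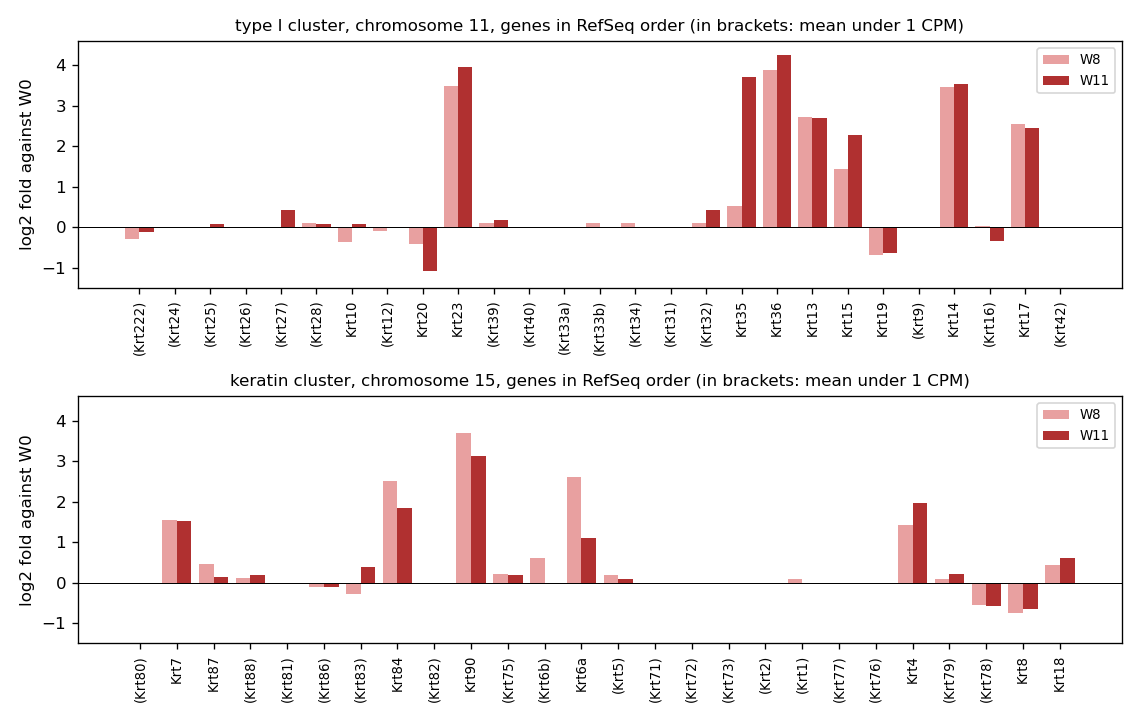
Log2 fold of each keratin against W0 at W8 and W11, with genes in their RefSeq order on chromosome 11 (top) and chromosome 15 (bottom); names in brackets had a mean under 1 CPM. The run Krt35, Krt36, Krt13 and Krt15 is higher at W11, while Krt20 next to Krt23 is lower.

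Across all members, of 33 tested, the number that rose was 1, 10, 12 and 14 in the W2, W5, W8 and W11 libraries, and 3, 0, 1 and 5 fell. Among all genes tested the share higher in these libraries was 3.41%, 6.63%, 7.79% and 11.3%, and the share lower 4.23%, 1.87%, 3.85% and 16.9%. The share lower among members at W11 was thus near the background. Of the 33 tested members, 5 had under 1 CPM at W0 (Dsg3, Krt4, Krt6a, Krt35 and Krt90) and passed the filter only through later libraries. Among the other 28 the number that rose from W5 on was 7, 8 and 9. The median log2 fold of the members in the 4 later libraries was -0.30, 0.22, 0.45 and 0.53, against -0.02, 0.11, 0.11 and -0.15 over all genes. The comparisons share the W0 library, so they are not independent of each other.

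The members that rose at all of W5, W8 and W11 were Krt13, Krt14, Krt15, Krt17, Krt23, Krt36, Krt6a, Krt84, Krt90 and Dsg3, 6 type I keratins, 3 type II keratins and 1 cadherin. The W5 call of Dsg3 was lost with either trend removed. In 9 of these 10 the counting interval of W8 over W5 lay above 1, and Krt15 was the exception. Between W8 and W11 they parted: Krt23, Krt36 and Krt15 were higher at W11, Krt84, Krt90 and Krt6a were lower, and the intervals of the other 4 included a ratio of 1.

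Among the desmosomal cadherins of simple epithelium Dsg2 fell at W2 and W11. Dsg2, the desmoglein of simple epithelia, was at 133 CPM at W0 and then 39.0, 140, 109 and 50.3. It fell at W2 (log2 -1.75), by 3.42-fold (3.11 to 3.76) on the CPM scale, and at W11 (-1.39), and lay within 2-fold of W0 between them. With the length trend removed its log2 fold at W11 was -0.66. Dsc2, its desmocollin partner, was at 144 CPM at W0 and then 98.7, 164, 177 and 81.8, within 2-fold of W0 throughout. The ratio of Dsg2 to Dsc2 on the RPKM scale was 0.86 at W0 and then 0.368, 0.796, 0.571 and 0.574.

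Dsg3, a desmoglein of the lower layers of stratified epithelium, had 3 counts at W0 and then 4, 31, 35 and 28. It passed the criterion at W5 (log2 1.05), W8 (1.57) and W11 (1.24), and its ratio to W0 at W8 was 12.01 with a counting interval of 3.79 to 61.0. Its W5 call rests on the settings: the log2 fold of Dsg3 there was 0.71 with the GC trend removed, 0.90 with the length trend removed, 0.97 with median-of-ratios scaling and 0.94 with the overall median subtracted. Against W2 it was 0.99. A pseudocount of 5 (0.55 and 0.40) or the RPKM values (0.21 and 0.15) lost the Dsg3 calls at W8 and W11. Both also lost that at W5. Dsc3, the matching desmocollin, had a mean of 0.785 CPM, the highest of the members left out by the filter, and had 4 counts at W0 and 36 at W11. The lowest mean among the tested members was that of Krt4, at 1.22 CPM. Dsg1a, Dsg1b and Dsg1c, near-identical copies that can share reads, had between 0 and 16 counts each.

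All 6 plaque genes were tested, none rose in any library and 1 fell, at W11. That was 16.7% of the 6, against 16.9% of all genes tested. Dsp, encoding desmoplakin, the link from desmosome to keratin, was at 863 CPM at W0 and then 491, 575, 648 and 348. It fell at W11 (log2 -1.31), 2.48-fold below W0 (2.40 to 2.56), but its log2 fold was -0.44 with the length trend removed. Jup, encoding plakoglobin, was at 416 CPM at W0 and then 243, 215, 396 and 304, with its lowest value at W5 (log2 -0.95). Jup passed the criterion there with median-of-ratios scaling (-1.09), the overall median subtracted (-1.05) or the length trend removed (-1.05).

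The plakophilins, which cluster the cadherins and desmoplakin, did not pass the criterion in any library. Pkp1 ranged from 75.5 to 122 CPM, Pkp2 from 58.9 to 98.2, Pkp3 from 78.6 to 132, and Pkp4, which also sits at adherens junctions, from 57.9 to 107. In 3 of the 4, and in Dsp and Jup, the W2 library was below W0, so 5 of 6 plaque genes were below W0 there, and then 4, 2 and 5 of 6. Of all genes tested 51.7%, 41.2%, 40.2% and 56.9% were below W0 in these libraries.

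Of the 5 members that fell at W11, 3 have long transcripts. Dsp has a longest transcript of 9592 bases in GENCODE M21, Dsg2 5766 and Evpl 6384, which places them at the 97.2, 85.3 and 88.6 percentiles of tested genes. With the length trend removed their log2 folds at W11 were -0.44, -0.66 and -0.79, all inside the criterion. With that setting 14 members were higher and 2 lower at W11, in place of 14 and 5. The lower ones were then Krt20 and Krt19, Sprr2a2 was lost, and among the higher ones Ppl (log2 1.26) took the place of Sprr1a. Against W2 in place of W0, the log2 fold at W11 was 0.36 for Dsg2, -0.50 for Dsp and -0.69 for Evpl.

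**Figure D5:**
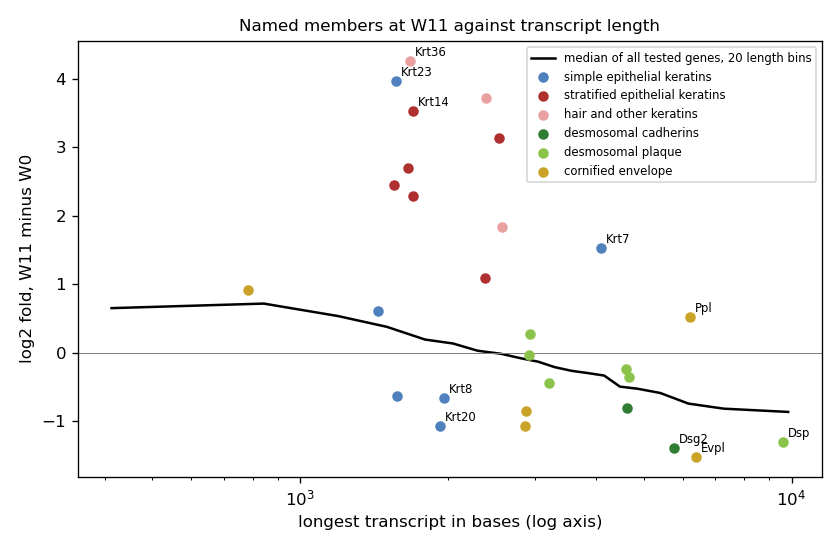
Log2 fold at W11 against W0 of the 28 named members, by the length of the longest transcript on a log axis, with the line giving the median of all tested genes in 20 bins of length. Dsp, Dsg2 and Evpl lie at the long end, where the line is itself below 0, and Krt36, Krt23 and Krt14 lie far above it.

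Cornified envelope members passed the criterion in both directions. Of 21 such members 6 were tested. Of these, 1 rose at W2, none rose at W5 or W8, 1 fell at W8, and 1 rose and 2 fell at W11. At W11 these were 16.7% and 33.3% of the 6, against 11.3% and 16.9% of all genes tested. Evpl, encoding envoplakin, was at 115 CPM at W0 and then 63.9, 65.6, 60.9 and 39.2, and fell at W11 (log2 -1.52). Its partner Ppl, encoding periplakin, was at 22.8 CPM at W0 and then 14.7, 26.6, 36.7 and 33.3, within 2-fold of W0. Envoplakin RNA was thus lower at W11, but its log2 fold was -0.79 with the length trend removed and -0.69 against W2. Periplakin RNA passed the criterion at W11 with the length trend removed (1.26) or against W2 (1.13). Lor, encoding loricrin, had between 6 and 18 counts, and Ivl, encoding involucrin, is listed at 0 in all libraries.

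Sprr genes encode proteins cross-linked into the envelope. Of 17 Sprr members, which include the pseudogenes Sprr2c-ps and Sprr2j-ps, 8 had no counts, Sprr2j-ps among them, and 4 were tested. Sprr2a3 had the most counts, at 209 CPM at W0 and then 219, 227.2, 161 and 115, within 2-fold of W0. Sprr2a2 was at 9.36 CPM at W0 and then 10.8, 11.5, 4.11 and 3.95, and fell at W8 (log2 -1.02) and W11 (-1.07). The W11 call was lost with the length trend removed (-0.98), the GC trend removed (-0.93), median-of-ratios scaling (-0.88) or the overall median subtracted (-0.91). A pseudocount of 5 and the RPKM values lost the calls of Sprr2a2 at W8 and at W11. Sprr2a1 is listed at 0 in all libraries. These copies are nearly identical, so how their reads were divided is uncertain. Sprr2b was at 1.96 CPM at W0 and then 5.74, 1.62, 2.24 and 4.55, and rose at W2 (log2 1.19), a call lost with the length trend removed (0.92), the RPKM values (0.99) or a pseudocount of 5 (0.63). At W11 Sprr2b was at a log2 fold of 0.91, and at 1.05 with the GC trend removed. Sprr1a, known from stressed epithelia, had 31 counts at W0 and 85 at W11, and passed the criterion at W11 with a log2 fold of 1.04. That fold was 0.33 with the length trend removed, 0.56 with a pseudocount of 5 and 0.89 with the RPKM values.

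Markers of other epithelia were measured beside these changes. Of 24 genes of stratified squamous epithelium that are not members, 12 were tested: from W5 on 2, 5 and 3 rose, and 1 fell in each library. Among all genes tested 6.63%, 7.79% and 11.3% rose in these libraries and 1.87%, 3.85% and 16.9% fell. Between 8 and 10 of the 24 had no counts in each library. Trp63, the master regulator of basal squamous cells, had no more than 2 counts in any library, and Flg, Calml3, Sbsn, Cnfn and Gjb6 had none in all 5. The summed level of the list was 2999 CPM at W0 and then 1825, 1373, 960.5 and 808, most of it Tgm3, a transglutaminase also made in colon, which fell from 2542 to 159 CPM. The genes of the list that rose at both W8 and W11 were Asprv1, Ly6d and Col17a1. Asprv1, an epidermal protease, went from 0.726 to 59.8 CPM at W11 (log2 5.14). Ly6d, a surface protein of squamous cells, went from 14.2 to 114 CPM, and Col17a1, a hemidesmosome collagen, from 0 to 3.41 CPM. Asprv1 and Col17a1 were under 1 CPM at W0 and W2 and passed the filter only through later libraries. Both thus had to be higher there, and the counts of the list that rose are not read as support.

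Of 9 hair and skin appendage genes, between 7 and 8 had no counts in each library, among them Hoxc13 and Tchh in all 5. Scd3, a sebaceous gland desaturase and the only one tested, fell at W8 (log2 -1.46) and W11 (-1.89). Of 7 urothelium genes 4 were tested, with 1 higher and 1 lower at W5 and 2 higher and 1 lower at W8 and W11. The list summed to between 9.83 and 32.7 CPM. Its Upk3a, a urothelial plaque protein, rose from no counts at W0 to 15.7 CPM at W11. Upk3a passed the filter only through later libraries, so it had to be higher there. The other gene of the list higher at W8 and W11 was Grhl3, described below (log2 1.63 and 1.65). Upk1a fell at W5, W8 and W11 (log2 -1.17, -1.88 and -1.67). Upk1b was at a log2 fold of -0.195 at W11, and Upk2 had no more than 2 counts. Of 7 mesothelium genes 3 were tested, with 1 higher and 1 lower at W8 and 1 lower at W11, and sums between 6.63 and 14.1 CPM. The part of these cell types in the keratin changes was not tested. Shares of all genes tested that rose or fell at W5, W8 and W11 are those given beside the squamous genes. A gene at 0 in all libraries is not read as absent, since Elf3 and Ceacam1, which colon epithelium makes, are also listed at 0.

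Among 15 transcription factors of stratified epithelium, 8 were tested: none passed the criterion at W2 or W5, 1 rose and 2 fell at W8, and 1 rose and 5 fell at W11. The one that rose was Grhl3, a grainyhead factor of the skin barrier, from 3.34 CPM at W0 to 12.5 at W8 and 12.6 at W11. Klf4, a factor of differentiated gut and skin, fell from 484 CPM at W0 to 215 at W8 and 126 at W11. Of 15 envelope enzymes and partners 6 were tested, with 1 higher and 1 lower in each of the W5 and W8 libraries, and 4 higher and 1 lower at W11. S100a11, a calcium-binding envelope protein, was at 52.5 CPM at W0 and then 96.3, 296, 211 and 197, with log2 folds of 2.47, 1.98 and 1.88 from W5 on. For both lists the all-gene shares at W5, W8 and W11 were 6.63%, 7.79% and 11.3% higher and 1.87%, 3.85% and 16.9% lower.

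Other junction genes gave a background for the desmosome. The shares of all genes tested that rose at W2, W5, W8 and W11 were 3.41%, 6.63%, 7.79% and 11.3%. Those that fell were 4.23%, 1.87%, 3.85% and 16.9%. All 12 adherens junction genes were tested: 1, 0, 2 and 1 rose and 2, 0, 0 and 4 fell in the 4 later libraries, among the last Cdh1, encoding E-cadherin, at 1029 CPM at W0 and 446 at W11 (log2 -1.20). All 9 hemidesmosome genes were tested: 0, 3, 3 and 2 rose and 1, 0, 1 and 2 fell. Col17a1, in each of the counts that rose from W5 on, passed the filter only through later libraries. Of the plakin and armadillo relatives 5 were tested, with 1 higher at W2 and 1, 0, 1 and 3 lower in the 4 later libraries. At W11 the long plakins Dst, Plec and Macf1 fell. Their folds with the length trend removed, and that of Cdh1, are not given here. The median log2 fold in the longest of 20 length bins was -0.87 at W11. Of 10 intermediate filament genes other than keratins, 3 rose at W2, and 1 fell in each of the W8 and W11 libraries. General colon epithelium genes had 13 tested, with 0, 0, 1 and 1 higher and 1, 0, 0 and 5 lower. Their sum was between 9823 and 12850 CPM, with the highest value at W0. Their median log2 fold was 0.01, -0.38, -0.45 and -0.78 in the 4 later libraries.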

How the data were processed

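Colon tissue RNA (TRIzol) went into TruSeq libraries, per the labels' protocols. The submitters' processing notes list FastQC, HISAT2 2.2.1, featureCounts, GRCm39 and GRCm38 without roles. The deposited read counts are whole numbers with unequal library totals and stand under headers that say TPM. Under headers that say count, the authors deposited values that behave as RPKM. Relative to W0, dividing one by the other gave a factor for each library that was common to the genes. All 2620 genes over 5 RPKM in every library lay within 1% of it. Headers were therefore taken as exchanged.

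Counts were divided by library totals to CPM. Rows with a mean of at least 1 CPM were compared (14720), by differences of log2(CPM + 1), which understate the change of low genes. A gene was called at 2-fold. Ratios have exact conditional (Clopper-Pearson) 95% intervals and levels exact Poisson intervals, and a library at 0 was set to 3 counts for a lower bound. With 1 library per week nothing is tested across conditions. Named members have at least 10 CPM in a library or are among the 6 largest folds of a comparison with at least 1 CPM in either library, and members named beyond these (such as Krt4, Krt5, Krt10, Krt16, Krt87, Dsg3, Dsc3 and Sprr1a) and genes of the other lists beyond the 4 largest folds of each at W8 or W11, were chosen after their values were seen. The members and lists were chosen with earlier results of these data known. Length and GC content come from the longest transcript in GENCODE M21, which held 99.4% of the rows and all 90 members. The calling steps were checked on simulated Poisson counts with planted changes. That check held no spread between animals or libraries, so it does not show how reliable the calls are. Alternatives were other pseudocounts, filters, scalings and baselines and the deposited RPKM values; removal of the GC or length trend and of the overall median were added after seeing the data. The software was scipy 1.17.1, numpy 2.4.6, matplotlib 3.10.9 and pandas 2.3.3 under Python 3.11.15.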

Additional observations from a re-analysis of the deposited data

How the results depend on the processing

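No paired analysis was possible because each week has 1 library, and for the same reason no library could be left out within a week. Members higher at W2 numbered 1, and 2 with a pseudocount of 0.1 and 0 with a pseudocount of 5, a mean of at least 5 CPM, the deposited RPKM values or the length trend removed. Members lower at W2 numbered 3, and 1 with a pseudocount of 5 or the RPKM values. Members higher at W5 numbered 10, and 4 with a pseudocount of 5 and 5 with the RPKM values. Members lower at W5 numbered 0, and 1 with median-of-ratios scaling, W2 as the baseline, the overall median subtracted or the length trend removed. Members higher at W8 numbered 12 and moved by no more than 1.5 times under any alternative run. Members lower at W8 numbered 1, and 0 with a pseudocount of 5 or the RPKM values and 2 with median-of-ratios scaling, W2 as the baseline or the overall median subtracted. Members higher at W11 numbered 14, and 8 with a mean of at least 5 CPM, where fewer members were tested. Members lower at W11 numbered 5, and 3 with median-of-ratios scaling, a baseline averaged over W0 and W2, the GC trend removed or the overall median subtracted, and 2 with W2 as the baseline or the length trend removed. A pseudocount of 5, or of 1 on the RPKM scale, pulls low genes toward 0 by construction; the other causes were not tested. Over the named members 40 calls were made; 38 were kept with median-of-ratios scaling, 35 with the length trend removed, and 28 with a pseudocount of 5 or with the RPKM values. Both of the latter lost Krt84 at W2 and W5, Krt23 at W2, Krt13 at W5, Krt15 at W5 and W8, Krt6a at W5 and W11, Sprr2b at W2 and Sprr2a2 at W8 and W11; the former also lost Krt23 at W5 and the RPKM values Krt6a at W8. Among tested members outside the named ones, both settings also lost Dsg3 at W5, W8 and W11, Krt4 at W8 and W11, and Sprr1a at W11. The call on Dsg2 at W11 was the one that reversed, to 0.36 with W2 as the baseline. Few counts limit Krt4, Krt6a, Krt90 and Dsg3 at W0, and 1 library per week limits every comparison. With the overall median subtracted, calls over all genes split 763 higher and 407 lower, 963 and 752, and 2077 and 1876 in the W5, W8 and W11 libraries, in place of 976 and 275, 1146 and 567, and 1662 and 2484.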
